A study of Mus musculus with 8 samples.

Results

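Genes of retinoic acid (RA) metabolism, binding and reception were followed in mouse embryonic stem cells (ESCs) before and after differentiation with RA. The set holds 9 of the 24421 genes in the count tables and was taken by symbol: Stra6, Aldh1a2, Dhrs3, Cyp26a1, Crabp1, Crabp2, Rara, Rarb and Rarg. The rule uses symbols and no measured value, and all 9 genes were found in every library.

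R1, an established mouse ESC line, was sampled as Undiff and as Day4. The Day4 cells had grown for 4 days as embryoid bodies, the aggregates that ESCs form in suspension without leukaemia inhibitory factor (LIF), and were then kept with RA for a further 4 days. The study's methods and the series' design text give the RA dose as 2 µM and the sample labels as 2 mM. The methods describe Undiff as ESCs kept in medium with LIF, whereas the labels describe it as embryoid bodies before RA. No group of Day4 age without RA was analysed, so RA, time and the change of culture cannot be told apart in any comparison of Day4 with Undiff. All groups are of the wild-type line with no other agent stated. Polyadenylated RNA was read by nanopore sequencing with the Direct RNA kit of Oxford Nanopore Technologies (ONT), which passes the native RNA strand through the pore and had 500 ng of input, and with the cDNA kit, which copies the RNA and amplifies it by PCR and had 50 ng. With 2 replicates for each state on each kit there were 8 libraries in 4 groups. The study describes RNA from duplicate samples that went to each kit, so agreement between the kits is not a second biological replication.

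Retinol reaches the cell bound to a carrier protein and is oxidized to retinaldehyde and then to RA, which CYP26 enzymes break down. Inside the cell RA is bound by cellular RA binding proteins, and in the nucleus by RA receptors (RARs), which sit with retinoid X receptors on response elements and switch the transcription of target genes when RA is bound. Several genes of RA breakdown, storage and reception are themselves textbook targets of the RARs, and RA directs differentiation of ESCs and patterning of the embryo.

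The Direct RNA libraries held 283461 to 907489 reads on genes, and the cDNA libraries 948657 to 2088592. Levels are given as CPM, the reads of a gene scaled to a common total of reads on genes, and 3 reads, taken as the smallest level a library can show, came to between 1.44 and 10.6 CPM. Replicate 2 was the deeper library in every group. The labelled cell type was checked against 10 pluripotency markers: their summed level was 11657.1 to 13973.7 CPM in Direct RNA Undiff and 123.5 to 554.5 in Direct RNA Day4, and 21599.0 to 24823.9 and 86.5 to 954.6 in cDNA. The 11 markers of primitive and visceral endoderm summed to 17.2 to 28.7 CPM in Direct RNA Undiff and 737.6 to 1114.8 in Day4, and to 12.6 to 14.4 and 301.2 to 335.5 in cDNA. The 10 markers of mesenchyme and fibroblasts summed to 13.2 to 20.1 and 1719.2 to 3277.3 CPM in Direct RNA, and to 5.75 to 12.6 and 278.4 to 390.9 in cDNA. The 10 neural markers summed to less in Day4, 91.7 to 107.1 CPM against 637.1 to 638.0 in Direct RNA and 62.1 to 72.1 against 628.3 to 790.0 in cDNA, although reads of 1 of them, Nes, went from 2 and 11 to 11 and 40 in Direct RNA and from 1 and 5 to 15 and 32 in cDNA. The 5 markers of early mesoderm stayed between 3.53 and 9.1 CPM in the 8 libraries. Of the defining markers, Gata6, Col1a2 and Col3a1 were at 0 reads in all 4 Undiff libraries. T and Mesp1 were at 0 reads in all 4 Day4 libraries, and at 0 or 1 read in every Undiff library. Mixl1, the other defining marker of early mesoderm, had 10 and 7 reads in cDNA Day4 and 2 and 12 in cDNA Undiff. The part of these cell types in the results on the RA genes was not tested, and in bulk RNA more cells that express a gene and more RNA per cell cannot be told apart.

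Promoter sequences of Cyp26a1 and Rarb are shown because they hold a match to the kind of element that RARs bind, and because both genes were at 0 or 1 read in every Undiff library. The RefSeq promoter windows of GRCm38.p6 (250 bases before a start site and 50 after it) were searched on both strands for a direct repeat of a hexamer with 5 bases between the copies (DR5), the hexamer being AGGTCA, where the first base may also be G and the third may also be T. Windows were matched for 8 of the 9 genes (17 windows), Crabp2 having no entry. The match of Cyp26a1 lay at chr19:37697776-37697792, 32 to 16 bases before the start site, and read on the minus strand. The match of Rarb lay at chr14:16575513-16575529, 53 to 37 bases before the RefSeq start site and inside the longer GENCODE gene, and read on the strand of the gene. Both are printed 5′ to 3′ on the strand of their gene, with the hexamers in capitals.
Cyp26a1: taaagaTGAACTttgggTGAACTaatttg
Rarb: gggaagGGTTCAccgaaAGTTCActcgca
In Cyp26a1 both hexamers read TGAACT, the reverse complement of AGTTCA. Of all 32851 windows searched, 32 (0.0974%) held a DR5, and of 27025 genes 31 (0.115%). None of the 17 windows held the same repeat with 1 base (DR1, in 0.222% of all windows) or 2 bases (DR2, in 0.268%) between the copies. Stra6, also at 0 or 1 read in every Undiff library, had no DR5 in its windows. Neither had Aldh1a2, at 0 to 2 reads in Undiff. A match is a description of these letters and not evidence of binding, and the windows say nothing of elements farther away.

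Across the set, 7 of 9 genes were called higher in Day4 in Direct RNA and 6 of 9 in cDNA, and 0 were called lower by DESeq2. Calls needed an adjusted p no higher than 0.05, a log2 fold change of 1 or more in either direction, and normalized counts averaging 5 or more (DESeq2, shrunken log2 fold changes, each kit fitted on its own over all genes). All 9 genes passed the count minimum on both kits, 5 of them (Stra6, Aldh1a2, Dhrs3 in Direct RNA, Cyp26a1 and Rarb) through their Day4 reads. Over all tested genes, Direct RNA called 9.54% higher and 7.67% lower, and cDNA 8.69% and 9.24%. In 8 of 9 genes on each kit, both Day4 libraries had a higher CPM than both Undiff libraries, which was so for 37.3% of all tested genes in Direct RNA and 43.1% in cDNA. The median log2 fold change of the 9 genes was 3.45 in Direct RNA (0.03 over all tested genes) and 4.02 in cDNA (0.00). The size factors of the test put log2 changes below those of plain CPM by 0.10 in Direct RNA and 0.33 in cDNA, so a gene with an equal share of reads in both states has a fitted change below 0.

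**Figure D1:**
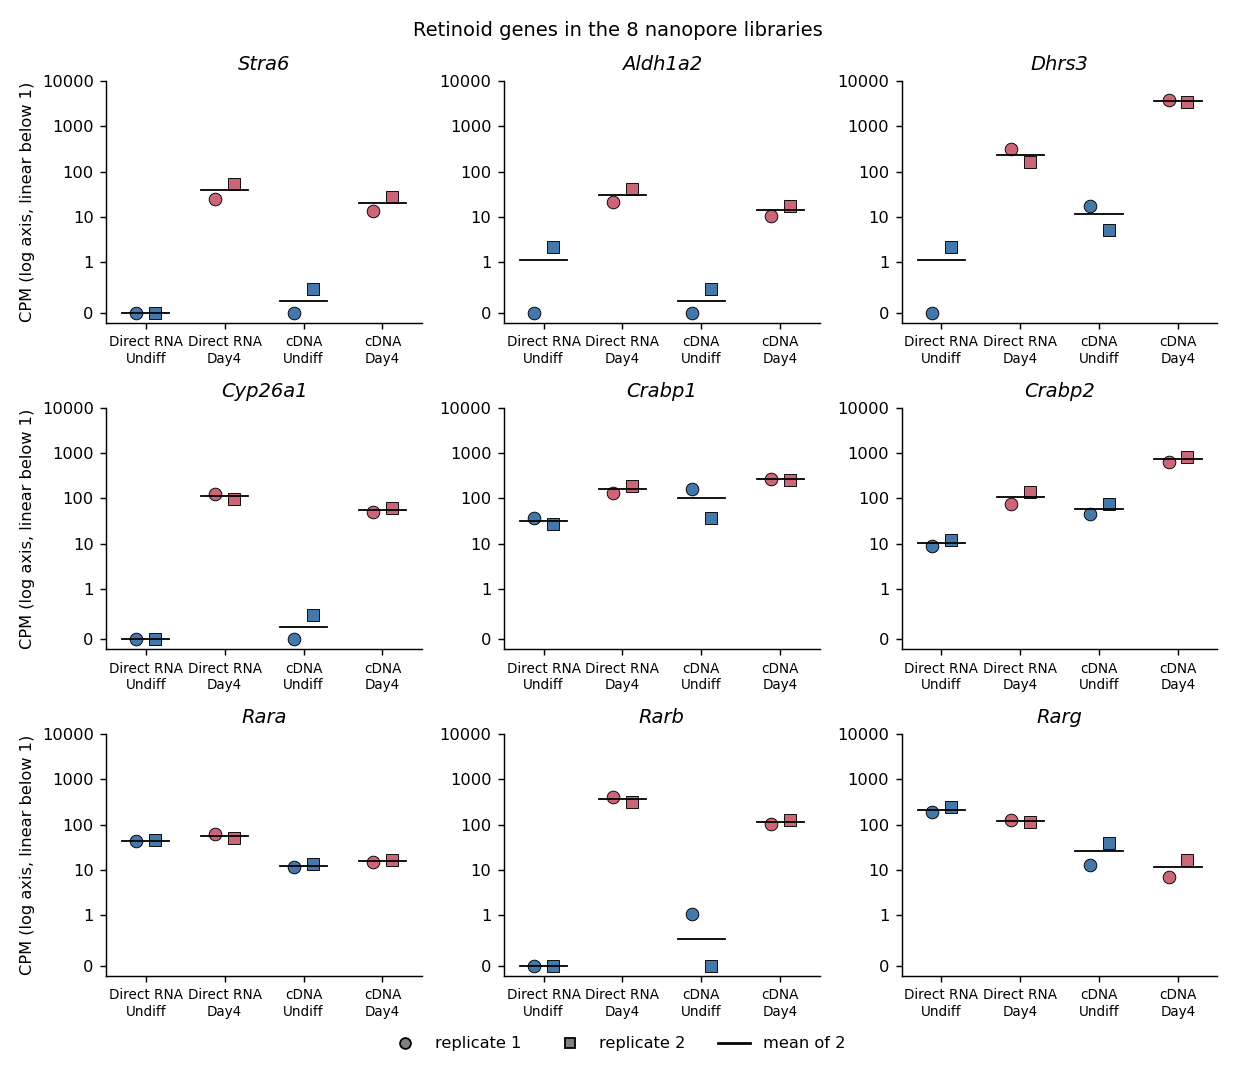
Level of each of the 9 genes in CPM (vertical axis, logarithmic above 1 and linear below) in the 4 groups, with Undiff in blue and Day4 in red. Circles and squares are replicates 1 and 2, and the line is the mean of 2. Stra6, Aldh1a2, Cyp26a1 and Rarb start at or near 0 on both kits, and Dhrs3 in Direct RNA only (17.9 and 5.27 CPM in cDNA Undiff). Rara differs little between states, and Rarg is lower in Day4 with overlapping groups in cDNA.

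The genes of retinoid uptake and RA synthesis came up from no or almost no reads. Stra6, the cell-surface receptor for the retinol carrier RBP4 (chr9:58063788-58153996, plus strand), had 0 reads in both Direct RNA Undiff libraries and 7 and 39 reads (24.7 and 52.9 CPM) in Day4. In cDNA it had 0 and 1 reads in Undiff and 18 and 57 reads (13.7 and 27.4 CPM) in Day4. The groups did not overlap on either kit, and the higher Day4 library was replicate 2 on both. The rise was at least 16.2-fold in Direct RNA, the mean Day4 level set against a floor of 3 reads over both Undiff libraries. In cDNA, with 1 Undiff read, the ratio of pooled reads (the reads of both libraries over their summed totals) was 67.1, with a wide counting interval of 11.7 to 2684.7. A floor and a pooled ratio are different bases, so the values of the kits are not to be compared, here or for the genes below. The fitted log2 fold change was 5.00 (SE 1.24, DESeq2 adjusted p = 0.0011) by the Direct RNA kit, and 4.53 (SE 1.17, adjusted p = 0.002) by cDNA. The call was lost on each kit when either replicate 2 was left out, with adjusted p values of 0.21 and 0.33 by Direct RNA, and of 0.085 and 0.3 by cDNA.

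Aldh1a2, the retinaldehyde dehydrogenase that makes RA in the embryo (chr9:71215789-71296243, plus strand), had 0 and 2 reads in Direct RNA Undiff and 6 and 30 reads (21.2 and 40.7 CPM) in Day4. The cDNA libraries had 0 and 1 reads in Undiff and 14 and 37 reads (10.6 and 17.8 CPM) in Day4. Day4 was above Undiff in all libraries of both kits, with few reads behind each value. The ratio of pooled reads was 22.1 (95% counting interval 5.7 to 189.8) in Direct RNA and 45.6 (7.83 to 1836.7) in cDNA. The log2 fold change was 3.45 (SE 1.14, DESeq2 adjusted p = 0.026) and 4.02 (SE 1.22, adjusted p = 0.013). Leaving out any 1 library of a kit ended the call on that kit, at log2 fold changes of 2.20 to 3.40 (adjusted p = 0.12 to 0.72) in Direct RNA and of 3.03 to 3.64 (0.089 to 0.48) in cDNA.

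Dhrs3, which reduces retinaldehyde back to retinol and so acts against RA synthesis, lies at chr4:144892827-144928209 on the plus strand. It had 0 and 2 reads in Direct RNA Undiff and 90 and 118 reads (317.5 and 160.0 CPM) in Day4. With cDNA there were 17 and 11 reads (17.9 and 5.27 CPM) in Undiff and 5096 and 7257 reads (3865.9 and 3493.4 CPM) in Day4. No library of Undiff came near a library of Day4, and in cDNA the lowest Day4 level was 194.9 times the highest Undiff level. The ratio of pooled reads was 127.9 (95% counting interval 35 to 1063.3) in Direct RNA, and the ratio of mean CPM was 317.4 in cDNA. The fitted log2 change was 6.31 (SE 0.86, DESeq2 adjusted p = 3.4e-11) and 7.87 (SE 0.51, adjusted p = 2.3e-50), and the call held without any 1 library on either kit.

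Cyp26a1, the cytochrome P450 that breaks down RA and whose promoter is shown above (chr19:37697798-37701536, plus strand), had no read in either Direct RNA Undiff library and 35 and 70 reads (123.5 and 94.9 CPM) in Day4. cDNA gave 0 and 1 reads in Undiff and 64 and 127 reads (48.6 and 61.1 CPM) in Day4. The groups were far apart on both kits, and the Day4 replicates differed by little beside that gap. The rise was at least 45.7-fold in Direct RNA against the floor, and the ratio of pooled reads was 170.8 (95% counting interval 30.3 to 6783.0) in cDNA. On the log2 scale the change was 6.48 (SE 1.12, DESeq2 adjusted p = 5.1e-07) and 5.93 (SE 1.04, adjusted p = 7.5e-07). It too was called without any 1 library on either kit.

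The binding proteins Crabp1 and Crabp2 differed from the enzymes in that both had reads in every Undiff library. Crabp2, which carries RA to the nucleus (chr3:87948666-87953376, plus strand), had 3 and 11 reads (8.61 and 12.1 CPM) in Direct RNA Undiff and 21 and 103 reads (74.1 and 139.6 CPM) in Day4. In cDNA there were 42 and 153 reads (44.3 and 73.3 CPM) in Undiff and 834 and 1694 reads (632.7 and 815.5 CPM) in Day4. Day4 was higher on both kits without overlap, by a ratio of means of 10.3 in Direct RNA and 12.3 in cDNA. The log2 fold change was 3.03 (SE 0.68, DESeq2 adjusted p = 0.00024) and 3.23 (SE 0.40, adjusted p = 2.4e-13). In Direct RNA the call was lost without Undiff replicate 2 (adjusted p = 0.075) or without Day4 replicate 2 (adjusted p = 0.37), and in cDNA it held without any 1 library.

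Crabp1, the other cytoplasmic RA binding protein, is at chr9:54764748-54773110 on the plus strand. It had 13 and 24 reads (37.3 and 26.4 CPM) in Direct RNA Undiff and 36 and 139 reads (127.0 and 188.5 CPM) in Day4, a ratio of means of 4.95. In cDNA the Undiff replicates stood apart, with 154 reads (162.3 CPM) in replicate 1 and 75 reads (35.9 CPM) in replicate 2, and Day4 had 357 and 528 reads (270.8 and 254.2 CPM), a ratio of 2.65. Day4 was the higher group on both kits, but the lowest Day4 level was only 1.57 times the highest Undiff level in cDNA against 3.4 times in Direct RNA. The fitted log2 change was 2.18 (SE 0.53, DESeq2 adjusted p = 0.00079) by Direct RNA and 1.02 (SE 0.58, 95% interval -0.11 to 2.15, adjusted p = 0.32) in cDNA. The cDNA change passed with edgeR, at a log2 fold change of 1.13 with an adjusted p of 0.027, and not with DESeq2. It rested on the Undiff replicates: it was 2.47 (DESeq2 adjusted p = 0.0003) without replicate 1 and 0.27 (adjusted p = 0.99) without replicate 2. The Direct RNA call was lost without Undiff replicate 2 (adjusted p = 0.28) or without Day4 replicate 2 (adjusted p = 0.37).

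The 3 receptors did not move together. Rarb, the receptor with the DR5 shown above (chr14:16430839-16819156, minus strand), had no read in either Direct RNA Undiff library and 117 and 230 reads (412.8 and 311.8 CPM) in Day4. The cDNA kit gave 1 and 0 reads in Undiff and 136 and 257 reads (103.2 and 123.7 CPM) in Day4. Every Day4 library was far above every Undiff library of its kit. The rise was at least 151.7-fold in Direct RNA against the floor, and the ratio of pooled reads was 351.5 (95% counting interval 62.7 to 13919.8) in cDNA. On the log2 scale the change was 8.07 (SE 1.04, DESeq2 adjusted p = 2.2e-12) and 6.85 (SE 0.97, adjusted p = 2.5e-10), and the call held without any 1 library. An exon of Rarb overlaps exons of Top2b and Gm48162 on the opposite strand. Counting used the strand in Direct RNA, and for cDNA its setting is not given in the sources used here.

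Rarg, at chr15:102234938-102257517 on the minus strand, had a lower mean in Day4 on both kits, and neither difference passed the DESeq2 test. The gene had 66 and 219 reads (189.4 and 241.3 CPM) in Direct RNA Undiff and 35 and 86 reads (123.5 and 116.6 CPM) in Day4. In cDNA the gene had 12 and 81 reads (12.6 and 38.8 CPM) in Undiff and 9 and 35 reads (6.83 and 16.8 CPM) in Day4. The groups did not overlap in Direct RNA, and in cDNA Undiff replicate 1 lay below Day4 replicate 2. The ratio of Day4 to Undiff means was 0.557 in Direct RNA and 0.46 in cDNA. The log2 fold change was -0.95 (SE 0.40, 95% interval -1.74 to -0.16, DESeq2 adjusted p = 0.12) and -1.37 (SE 0.73, 95% interval -2.81 to 0.07, adjusted p = 0.28), so neither passed. With edgeR the adjusted p was 0.023 in Direct RNA, where the log2 fold change of -0.97 missed the size threshold, and 0.026 in cDNA, where the change of -1.44 was called. The cDNA change ran from -1.91 without Undiff replicate 1 to -0.47 without Undiff replicate 2, and DESeq2 called it in none of these fits.

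Rara, at chr11:98927818-98974942 on the plus strand, showed no detectable change. It had 15 and 41 reads (43 and 45.2 CPM) in Direct RNA Undiff and 18 and 37 reads (63.5 and 50.2 CPM) in Day4. By cDNA it had 11 and 28 reads (11.6 and 13.4 CPM) in Undiff and 20 and 35 reads (15.2 and 16.8 CPM) in Day4. Both Day4 levels in CPM were above both Undiff levels on each kit, by a ratio of means of 1.29 and 1.28. On the scale of the test the log2 fold change was 0.23 (SE 0.62, 95% interval -0.98 to 1.43, DESeq2 adjusted p = 0.93) in Direct RNA and 0.03 (SE 0.73, 95% interval -1.40 to 1.45, adjusted p = 0.99) in cDNA. These intervals still allow a rise or a fall of up to about the size threshold or more, so the data do not show that Rara was constant.

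**Figure D2:**
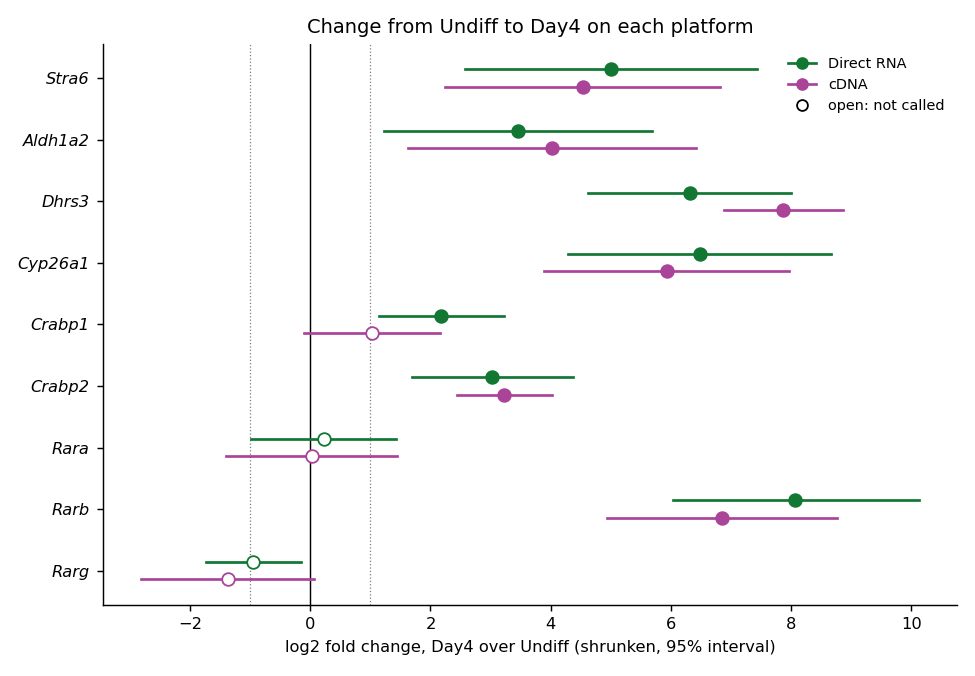
Log2 fold change of Day4 over Undiff (horizontal axis) for each gene in Direct RNA (green) and cDNA (purple), with 95% intervals as bars. Filled points were called and open points were not, and dotted lines mark a change of 1. Rarb has the highest value in Direct RNA, 8.07, and Dhrs3 in cDNA, 7.87, and only the points of Rarg lie below 0.

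Within the receptor family, Rarg had the most reads in Undiff and Rarb in Day4. The share of each receptor was taken over the summed reads of Rara, Rarb and Rarg in a library. Rarg held 81.5% (95% Wilson interval 71.7 to 88.4) and 84.2% (79.3 to 88.2) of the family's reads in Direct RNA Undiff and 20.6% (15.2 to 27.3) and 24.4% (20.2 to 29.1) in Day4. In cDNA it held 50% (31.4 to 68.6, of 24 reads) and 74.3% (65.4 to 81.6) in Undiff and 5.45% (2.9 to 10) and 10.7% (7.8 to 14.5) in Day4. Rarg thus led in all 4 Undiff libraries, in cDNA replicate 1 by 12 reads against 11 of Rara, and in none of the 4 Day4 libraries. For Rarb the share was 68.8% (61.5 to 75.3) and 65.2% (60 to 69.9) in Direct RNA Day4 and 82.4% (75.9 to 87.5) and 78.6% (73.8 to 82.7) in cDNA Day4. It had 0 of 81 and 0 of 260 family reads in Direct RNA Undiff, which by the Wilson interval allows up to 4.53% and 1.46%. In cDNA Undiff it had 1 of 24 (4.17%, interval 0.739 to 20.2) and 0 of 109 (up to 3.4%). The share of Rara was 15.8% to 18.5% in Direct RNA Undiff and 10.5% to 10.6% in Day4, and 25.7% to 45.8% and 10.7% to 12.1% in cDNA. The longest transcripts of Rara, Rarb and Rarg have 3384, 3108 and 2953 bases, so dividing by them could change the shares little. Divided so, the Day4 share of Rarb was 64.9% to 68.7% in Direct RNA and 78.8% to 83% in cDNA. Rarg led in Undiff and Rarb in Day4 as before, which lengths so near could hardly alter. No test of these shares was made.

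The summed level of the 3 receptors was higher in Day4. It was 232.5 and 286.5 CPM in Direct RNA Undiff and 599.7 and 478.6 in Day4, and 25.3 and 52.2 CPM in cDNA Undiff and 125.2 and 157.4 in Day4. The groups did not overlap on either kit. The sum of Crabp1 and Crabp2 was 45.9 and 38.6 CPM in Direct RNA Undiff and 201.1 and 328.1 in Day4, and 206.6 and 109.2 CPM in cDNA Undiff and 903.5 and 1069.6 in Day4, again without overlap.

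Between the 2 binding proteins the kits gave a different majority. Crabp2 held 18.8% (6.59 to 43, of 16 reads) and 31.4% (18.6 to 48) of their reads in Direct RNA Undiff and 36.8% (25.5 to 49.8) and 42.6% (36.5 to 48.9) in Day4. In cDNA it held 21.4% (16.3 to 27.7) and 67.1% (60.8 to 72.9) in Undiff and 70% (67.4 to 72.6) and 76.2% (74.4 to 78) in Day4. Crabp1 therefore had more reads in all 4 Direct RNA libraries, and Crabp2 in both cDNA Day4 libraries, while the cDNA Undiff replicates disagreed. Divided by the longest transcripts, of 802 bases for Crabp1 and 931 for Crabp2, the share of Crabp2 was 66.8% and 73.4% in cDNA Day4. It was 33.4% to 39% in Direct RNA Day4, and lengths so near could move the shares little.

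**Figure D3:**
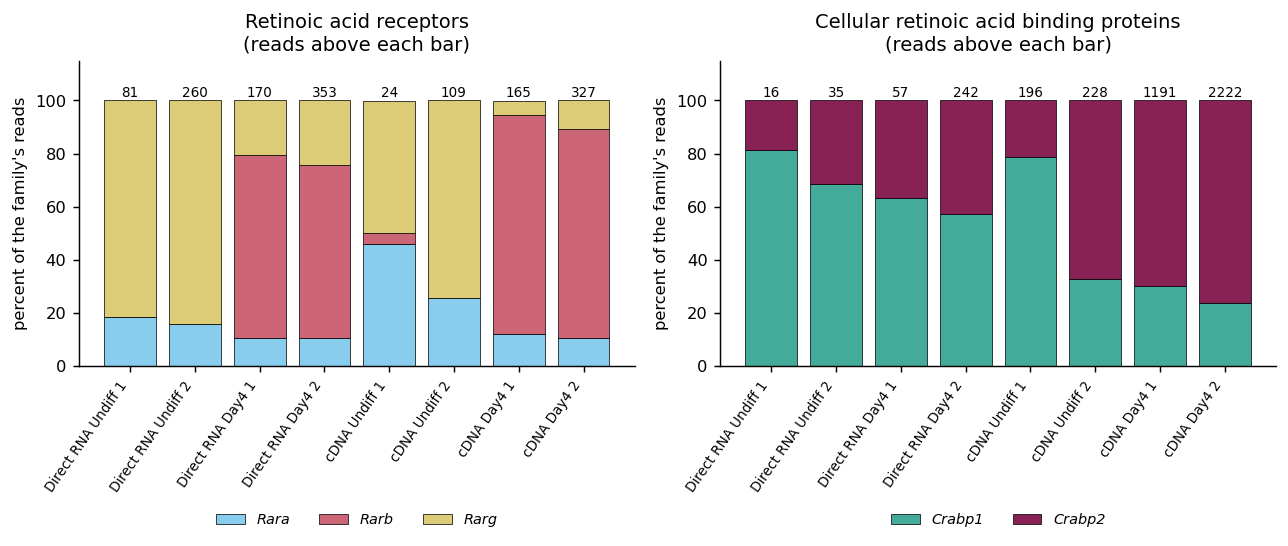
Share of each gene in the reads of its family (vertical axis, percent) in each of the 8 libraries, for the RA receptors (left) and the RA binding proteins (right), with the number of reads above each bar. Rarb takes 65.2% to 82.4% of the receptor reads in the 4 Day4 libraries, and Crabp2 takes 70% and 76.2% of the binding protein reads in cDNA Day4 against 36.8% and 42.6% in Direct RNA Day4.

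Whether the change from Undiff to Day4 differed between the kits was tested by the interaction of kit and state over all 8 libraries. None of the 9 genes passed an adjusted p of 0.05 with DESeq2 or with edgeR, and none had an unadjusted p under 0.05, the lowest being 0.15 for Crabp1. Over all 17267 genes tested with DESeq2, 2 passed (0.0116%) and 161 (0.932%) had an unadjusted p under 0.05, and edgeR passed 14. The interaction of Crabp1 was -1.24 (95% interval -2.93 to 0.44) on the log2 scale and that of Dhrs3 0.98 (-1.46 to 3.43). That of Rarb was -1.97 (-5.93 to 1.99). The intervals are wide, and a difference in response of several-fold between the kits was not detectable for genes with no reads in Undiff.

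The kits themselves gave different levels for 5 of the 9 genes, with state as a covariate and the same thresholds. Dhrs3, Crabp2 and Crabp1 were higher in cDNA (33.3%, against 24.7% of all tested genes). Rarg and Rara were lower (22.2%, against 26.6%). These shares are near those over all genes, so such calls are not particular to this set. In Day4, where all genes had reads, Dhrs3 was at 238.7 ± 111.4 CPM (SD, n = 2) in Direct RNA and 3679.7 ± 263.4 in cDNA, a ratio of 15.4. Crabp2 was at 106.9 ± 46.4 and 724.1 ± 129.2 CPM, a ratio of 6.78, and Crabp1 at 157.7 ± 43.5 and 262.5 ± 11.8 CPM, a ratio of 1.66. In Undiff the ratio was 5.67 for Crabp2 and 3.11 for Crabp1, whose cDNA Undiff replicates stood apart at 162.3 and 35.9 CPM. Both Dhrs3 and Crabp2 were thus read far more often through cDNA, beyond the spread of replicates.

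Rarg and Rara were called lower in cDNA, and Rarb was not. Rarg in Day4 was at 120.0 ± 4.86 CPM (SD, n = 2) in Direct RNA and 11.8 ± 7.09 in cDNA, a ratio of 0.0986, and in Undiff at 215.4 ± 36.7 and 25.7 ± 18.5, a ratio of 0.119. Rara was at 56.8 ± 9.43 and 16 ± 1.19 CPM in Day4, a ratio of 0.282, and at 0.283 in Undiff. Rarb in Day4 was at 362.3 ± 71.4 and 113.4 ± 14.5 CPM, a ratio of 0.313. The ratios of Rara and of Rarg in the 2 states were thus close to each other.

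In the test over both states, the log2 difference of cDNA from Direct RNA was 4.24 (SE 0.47, DESeq2 adjusted p = 5.2e-18) for Dhrs3, 3.25 (SE 0.29, adjusted p = 1.8e-26) for Crabp2 and 1.86 (SE 0.46, adjusted p = 0.00029) for Crabp1, which was 1.27 without cDNA Undiff replicate 1 and still called. It was -2.38 (SE 0.34, adjusted p = 7.4e-11) for Rarg and -1.06 (SE 0.32, adjusted p = 0.0038) for Rara. The call of Rara rested on the size threshold: it fell just under 1 in size with edgeR, without Direct RNA Day4 replicate 1 and without cDNA Day4 replicate 2 (-0.99), and passed in none of these. Rarb, at -0.95 (SE 0.34, adjusted p = 0.015), missed the size threshold. The shift of the size factors against CPM, counted as above, was -0.75 for this comparison, so the fitted differences lie above those of CPM. For Cyp26a1, Stra6 and Aldh1a2 the difference was -0.28 (95% interval -1.10 to 0.53), -0.22 (-1.49 to 1.05) and -0.62 (-1.88 to 0.64), and none passed. The kits also differ in input and PCR, and the part of each was not tested.

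**Figure D4:**
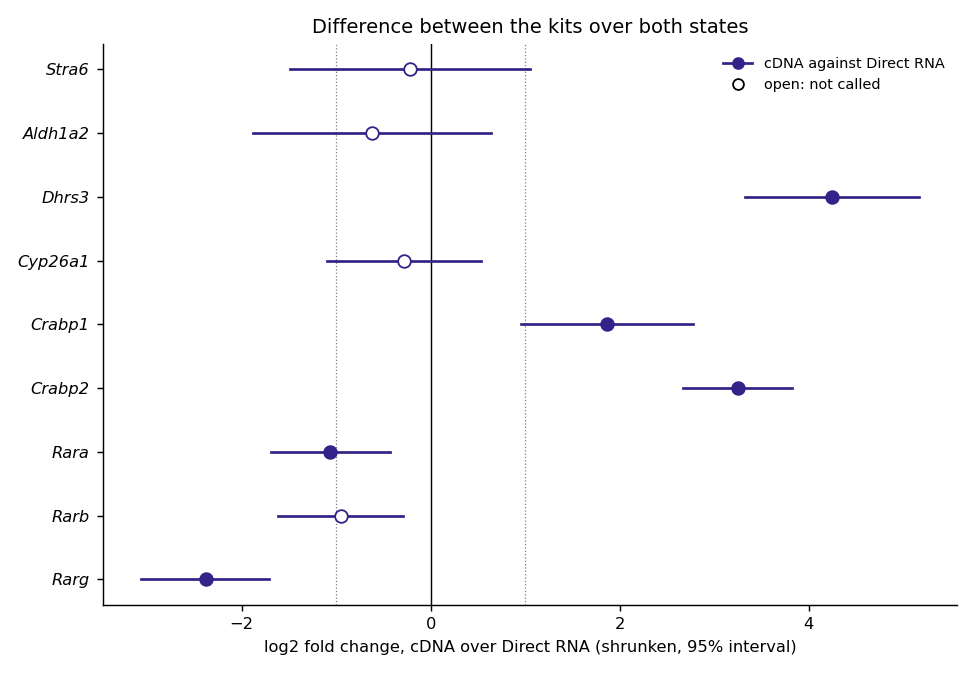
Log2 difference of cDNA from Direct RNA over both states (horizontal axis) for each gene, with 95% intervals as bars. Filled points were called and open points were not, and dotted lines mark a difference of 1. Dhrs3 (4.24) and Crabp2 (3.25) lie farthest to the right and Rarg (-2.38) farthest to the left.

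Other genes of retinoid transport, storage, synthesis and breakdown were taken from a list. Of 30 such genes in the tables, 11 passed the count minimum in Direct RNA, of which 4 were higher and 0 lower, and 13 in cDNA, of which 4 were higher and 1 lower. Over all tested genes 9.54% were higher and 7.67% lower by Direct RNA, and 8.69% and 9.24% by cDNA. The median log2 fold change of the list was 1.66 and 1.30, against 0.03 and 0.00 over all tested genes. Genes with almost no Undiff reads, such as Cyp26b1 and Lrat, passed the count minimum through Day4. Cyp26b1, which like Cyp26a1 breaks down RA, had 0 and 1 reads in Direct RNA Undiff and 133 and 253 in Day4, and 1 and 0 and then 137 and 273 in cDNA, with log2 fold changes of 7.54 (SE 0.91, DESeq2 adjusted p = 2.3e-14) and 6.90 (SE 0.97, adjusted p = 1.6e-10).

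Rbp4, the retinol carrier that Stra6 receives, rose from 5.41 ± 4.53 to 92.4 ± 54 CPM (SD, n = 2) in Direct RNA, and in cDNA from 10.9 ± 9.96 to 164.0 ± 5.61. Its Direct RNA call was lost without Undiff replicate 2 (DESeq2 adjusted p = 0.16) or without Day4 replicate 1 (adjusted p = 0.18). Rdh10, which oxidizes retinol in the step before Aldh1a2, had log2 fold changes of 2.79 (DESeq2 adjusted p = 0.011) in Direct RNA and 2.36 (adjusted p = 0.1; edgeR adjusted p = 0.00038) in cDNA, and the Direct RNA call was lost whichever of the 4 libraries was left out. Lrat, which stores retinol as esters, was called in cDNA, from 0 reads in Undiff to 10 and 19 in Day4, a rise of at least 8.47-fold, and this call too was lost whichever library was left out. Rbp7, a cellular retinol binding protein, was the gene that fell: in cDNA it had 31 and 63 reads in Undiff and 1 and 0 in Day4 (log2 fold change -5.81, adjusted p = 1.8e-06), and in Direct RNA 4 and 9 reads and then 0 and 0 (adjusted p = 0.18).

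Among 14 partners and coregulators of the receptors, 11 were tested in Direct RNA, with 1 higher and 1 lower, and 13 in cDNA, with 0 higher and 1 lower, shares near or below the 9.54%, 7.67%, 8.69% and 9.24% over all genes. Their median log2 fold change was -0.29 in Direct RNA and 0.42 in cDNA. Ncoa3, a coactivator of nuclear receptors, fell from 102.0 ± 2.22 to 27 ± 1.74 CPM (SD, n = 2) in Direct RNA, and in cDNA from 387.2 ± 90.5 to 133.1 ± 24.2, with log2 fold changes of -1.95 and -1.83 (DESeq2 adjusted p = 0.011 and 0.00041). Rxra, a retinoid X receptor that pairs with the RARs, rose in Direct RNA from 13.1 ± 6.38 to 74.6 ± 5.71 CPM (adjusted p = 0.024) and was at 3.74 ± 0.811 and 8.67 ± 4.75 CPM in cDNA (adjusted p = 0.84). The Direct RNA calls of both were lost whichever of the 4 libraries was left out, and the cDNA call of Ncoa3 without replicate 1 of Undiff (adjusted p = 0.059) or replicate 2 of Day4 (adjusted p = 0.11).

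Of 11 textbook RA target genes outside the set, all 7 tested in Direct RNA and 8 of 9 tested in cDNA were higher in Day4, and 0 were lower, with median log2 fold changes of 5.43 and 5.52. The shares of all tested genes called higher were 9.54% and 8.69%, those called lower 7.67% and 9.24%, and the medians 0.03 and 0.00. Most had few or no reads in Undiff and passed the count minimum through Day4, so these counts do not stand for the whole list. Nr2f2, an orphan nuclear receptor, had 0 reads in Direct RNA Undiff and 79 and 117 in Day4, a rise of at least 91.5-fold, and 0 and 4 and then 1321 and 3563 reads in cDNA. The homeobox genes Meis1 and Meis2 had log2 fold changes of 5.43 and 6.91 by Direct RNA, and of 6.09 and 7.62 by cDNA. Nr2f1 rose by 5.79 and 7.79, with 0 Undiff reads in cDNA, and Tgm2, a transglutaminase, by 3.75 and 3.44. Stra8, named for its response to RA, rose by 3.46 and 2.94. Hoxb1 was called in cDNA (5.52, DESeq2 adjusted p = 7.8e-07) and lay under the count minimum in Direct RNA, where it had 0 reads in Undiff and 5 and 13 in Day4. In Direct RNA the call of Tgm2 was lost without Undiff replicate 2. In cDNA the call of Tgm2 was lost whichever library was left out. Stra8 lost its call without Undiff replicate 2 or either Day4 replicate on both kits.

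The likeness of patterns was described by Pearson's r of log2(CPM + 1) over the 8 libraries, which share state, kit and depth, and no test was made. Among the 9 genes, Cyp26a1, Rarb, Stra6 and Aldh1a2 had the closest patterns, with r between 0.946 and 0.992, which come down to reads in Day4 on both kits and close to none in Undiff. Dhrs3 was closer to Crabp2 (r = 0.94) and Crabp1 (0.89) than to those 4 (0.78 to 0.864), and these are the 3 genes that were higher in cDNA. Rara and Rarg had r = 0.874 with each other, and Rarg had -0.728 with Crabp2. Among the other 8182 genes with at least 100 reads, the gene most like Rarb was Cyp26b1 (0.996) and the gene most like Cyp26a1 was Hoxc5 (0.999). The most alike genes were Hapln1 for Stra6 (0.994), Pja1 for Aldh1a2 (0.991), Sox9 for Dhrs3 (0.989), Abracl for Crabp1 (0.982), Timm21 for Crabp2 (0.991), Hunk for Rara (0.999) and Hexim1 for Rarg (0.995). With 8 libraries in 4 groups and so many genes compared, a high r for the best match is common to all 9 genes.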

How the data were processed

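The authors deposited raw counts of reads for each gene symbol. They had aligned the reads to mm10 with minimap2 and counted them with htseq-count on a UCSC annotation (tools and build as in the submitters' processing notes, annotation from the methods). Direct RNA was counted by strand. Reads that the counter gave to no gene entered neither totals nor tests. They came to between 8.84% and 15.8% without a feature and between 1.21% and 5.04% ambiguous. CPM, means ± SD, ratios and shares were computed from the counts. Ratios against 0 reads used a floor of 3 reads over the group, and counting intervals are at 95%. Both cover counting error only, as PCR copies of a molecule are not independent.

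DESeq2 1.42.0 in R 4.3.3 was fitted over all genes as the methods of the study describe (Wald test, shrunken log2 fold changes, without independent filtering or a cutoff on Cook's distance), with Benjamini-Hochberg adjustment over all genes. The interaction was fitted without shrinkage. The quasi-likelihood test of edgeR 4.0.16 was the alternative, beside no shrinkage, the default filters of DESeq2, at least 10 reads in every library, a replicate block, each library left out and shares per transcript length. The fits were tested on simulated data. With 2 replicates, described by the methods as grown and treated separately, p-values of the state tests rest on the spread between those samples. The kit and interaction tests took the 8 libraries as independent, although RNA of the duplicate samples went to both kits. Only with a replicate block did they hold a term for the sample. Replicates differed by more than sampling noise (chi-square per degree of freedom of 2.68 to 14.9). Gene coordinates are from GENCODE on GRCm38, which mm10 also names, and promoter sequences from RefSeq on GRCm38.p6. The genes, the lists and the rule for naming genes (all 9, list genes called on at least 1 kit, and the most alike gene of each) were chosen with earlier results of these data known. Short-read libraries were not analysed here. Some list genes that the naming rule takes are not reported here by name.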

Additional observations from a re-analysis of the deposited data

How the results depend on the processing

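Over the 9 genes, 7 were called between states in Direct RNA, against 3 to 6 when a library was left out, 4 with the replicate block, with or without shrinkage, and 1 of the 3 genes kept by a minimum of 10 reads in each library. In cDNA 6 were called, against 4 to 6 when a library was left out (Crabp1 among them without Undiff replicate 1) and 2 of the 4 genes kept by that minimum. Between kits 5 were called, against 4 to 6 when a library was left out (Rarb among them without Direct RNA Undiff replicate 2) and 2 of the 2 genes kept. With edgeR 7 were called in Direct RNA, 8 in cDNA (Crabp1 and Rarg in addition) and 4 between kits (Rara lost). Cyp26a1, Rarb and Dhrs3 were called on both kits in every fit without 1 library. Under the replicate block, in Direct RNA, the calls of Cyp26a1 (1.65, adjusted p = 0.84), Rarb (1.67, 0.83) and Aldh1a2 (3.07, 0.18) and the cDNA call of Aldh1a2 (3.57, 0.069) were lost with DESeq2, and no other call of the 9 genes changed. Without shrinkage, a choice made after seeing the data, that block gave 8.28 (0.31) for Cyp26a1 and 10.01 (0.15) for Rarb in Direct RNA, both at 0 reads in Undiff. Among the list genes the block also ended the Direct RNA calls of Rdh10, Ncoa3, Rxra, Nr2f2 and Stra8 and the cDNA calls of Lrat, Meis2, Nr2f1 and Tgm2. The cause was not tested. The replicate numbers share only a number in the labels: differences between replicates correlated across 1395 genes at 0.214 between states in Direct RNA, 0.500 in cDNA, 0.124 between kits in Undiff and -0.416 in Day4. Crossing the Day4 numbers between kits, also chosen after seeing the data, gave 1 interaction call over all genes and 5081 kit calls, against 5344 without a block and 5049 with it uncrossed. Over all genes, edgeR called 3257 and 3348 genes between states and 14 interactions against 1660, 1842 and 2 with DESeq2, the minimum of 10 reads left 723, 989, 1 and 1674 calls (fewer genes tested), the block 843 in Direct RNA (825 without shrinkage), and leaving out a library 393 to 797, 709 to 1020 and 0 to 13. The direction turned in these fits without 1 library, none of them called: Rara in cDNA (-0.07 to 0.09), Stra6 between kits (-0.46 to 0.50, and 0.02 without cDNA Day4 replicate 1), and the interactions of Crabp1 (-2.07 to 0.37), Crabp2 (-0.32 to 0.68, with -0.29 and -0.17), Rarb (-3.75 to 0.09), Rarg (-1.14 to 0.36), Dhrs3 (-0.64 to 2.13) and Aldh1a2 (-0.77 to 1.38). Where 1 library was left in a group, it is assumed to vary like the other group. Divided by length, the share of Crabp1 in cDNA Day4 moved to 33.2% and 26.6%. Depth limits Stra6 and Aldh1a2, with 6 to 57 reads in a Day4 library.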
